A study of Schizosaccharomyces pombe with 15 samples.

Results

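Late-falling genes were fission yeast genes whose RNA stood above 0.8 times its unirradiated level 10 min after atmospheric-pressure plasma but at most 0.6 times that level at 30 min. They were chosen from group means of CPM (each gene's reads as a share of its library, after TMM scaling). The rule asked for a mean of at least 5 CPM without irradiation and a plasma 30 min mean of at most 0.6 times that level. It also asked for a plasma 10 min mean above 0.8 times that level. Only identifiers starting with SPNCRNA were left out, so other identifiers, including those of pseudogenes, stayed in. Of 6998 genes listed, 4192 were open to this rule, 163 of them (3.89%) met the 30 min condition, and 49 met every condition. All 49 passed the filter on low counts, which kept 5214 genes.

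All 15 libraries came from wild-type (wt) strain JY450 grown in YE medium, with 3 libraries in each of 5 groups. The groups were no irradiation, plasma 10 min, plasma 15 min, plasma 30 min, and hydrogen peroxide (H2O2) treatment, and the series text places the plasma times after irradiation. Cells lay on a membrane filter on agar during irradiation, per the labels' protocols. Neither their growth phase nor the amounts of plasma and H2O2 or the length of the H2O2 treatment is stated in the labels. Libraries held 14691752 to 23232575 counts, and the common biological coefficient of variation was 8.8%. The H2O2 counts came in a table of their own without controls, so a difference between H2O2 and any other group and a difference between the tables cannot be told apart. Levels are shares of each library, so a lower CPM does not show fewer RNA molecules per cell.

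A growing cell spends much of its transcription on ribosomes: ribosomal proteins, the enzymes that cut, modify and assemble ribosomal RNA, and the polymerases that make it. Fission yeast is known to reduce these RNAs under many stresses, as part of its environmental stress response. A separate set of genes is transcribed once per cell cycle, around mitosis and septation, through forkhead factors among others, and builds and then cleaves the septum between daughter cells.

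By role, the 49 genes comprised 4 ribosomal protein genes, 10 genes of ribosome assembly, 4 of tRNA and RNA handling, 2 linked to translation, 3 metabolic enzymes, 9 of the cell cycle and division, 4 of the cell surface and membrane traffic, 2 of mating, and 11 other or uncharacterised genes. They lay on all 3 chromosomes, with 24 on chromosome I, 14 on II and 11 on III, where the genes open to the rule numbered 1880, 1533 and 765. Their median length was 1777 bases against 1972 for the genes open to the rule, and their median level without irradiation was 89.8 CPM against 87.3 CPM.

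A few upstream stretches are shown first, because the motifs in them are those known for genes of these roles. Each is 120 bases of the RefSeq assembly ASM294v3, ending just before the more distal of the transcript starts given by RefSeq and by the deposited tables. In the first set, chosen to show the HomolD box of ribosomal protein promoters (CAGTCACA, searched on both strands), the capitals mark that box. The stretches are I:3430814-3430933, I:5095926-5096045 and II:4163902-4164021, all on the minus strand.
rpl702: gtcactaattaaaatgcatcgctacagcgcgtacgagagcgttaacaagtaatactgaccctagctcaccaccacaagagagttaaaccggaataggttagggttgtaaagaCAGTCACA
rpl3002: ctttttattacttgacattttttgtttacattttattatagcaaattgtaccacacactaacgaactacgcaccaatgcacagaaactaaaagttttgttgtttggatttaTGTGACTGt
sam1: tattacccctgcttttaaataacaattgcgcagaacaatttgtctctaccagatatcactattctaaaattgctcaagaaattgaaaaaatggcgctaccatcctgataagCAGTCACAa
The box stood in 6 of the 48 members whose promoter was read (12.5%), from 250 bases before to 50 after the RefSeq start, against 137 of 5111 coding genes (2.68%). The 6 were rpl702, rpl1202, rpl3002, tma19, sam1 and pth4. In pth4 the box began at -242 from the RefSeq start, and in the others at -65 to -46. No box stood in the 120 bases ahead of the more distal start of rpl1202 or tma19. Of the 139 cytoplasmic ribosomal protein genes, 63.31% held it.

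The second set shows the forkhead FLEX core (TGTTTAC, both strands), in capitals, ahead of 4 division genes. The stretches are II:1712120-1712239 on the minus strand, and II:1095043-1095162, II:1227541-1227660 and II:1566245-1566364 on the plus strand.
klp5: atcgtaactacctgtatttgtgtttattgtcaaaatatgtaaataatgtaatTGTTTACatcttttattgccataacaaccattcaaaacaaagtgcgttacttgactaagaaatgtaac
chs2: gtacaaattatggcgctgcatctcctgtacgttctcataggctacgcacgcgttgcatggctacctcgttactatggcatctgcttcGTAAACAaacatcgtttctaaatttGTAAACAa
nbl1: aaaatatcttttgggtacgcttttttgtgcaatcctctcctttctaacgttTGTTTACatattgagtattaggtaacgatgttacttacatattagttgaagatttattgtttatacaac
uds1: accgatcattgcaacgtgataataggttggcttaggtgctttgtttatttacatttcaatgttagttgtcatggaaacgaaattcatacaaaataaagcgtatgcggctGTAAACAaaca
This core stood in 20 of the 48 members (41.67%), in 7 of the 9 division genes, and in 848 of 5111 coding genes (16.59%). In the list of mitosis and cell separation genes, it stood in 40.79%. The neighbours pun1 and mde6 share 1 site between them. The MluI box of the G1/S factor MBF (ACGCGT) stood upstream of the start in chs2 and downstream of it, within the window, in klp5, in 4.17% of members against 3.25%. Of the other motifs, searched on both strands, the HomolE box stood in 1 of 48 members, sla1, against 1.25% of coding genes, and the core of the Atf1 site (TGACGT) in 1, adg2, against 5.91%. The GATA site (TGATAAG) stood in 3, agn1, sam1 and utp23, against 3.82%, and the Pap1 site (TTACGTAA) in 0, against 0.47%. These matches describe letters in a window, not bound sites.

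Over the 49 genes, the median ratio to no irradiation was 0.889 at plasma 10 min, 0.706 at 15 min, 0.544 at 30 min and 0.680 with H2O2, and over all genes tested it was 0.998, 0.998, 0.993 and 0.997. The 10 and 30 min values chose the genes and are descriptions. In 39 of the 49 the mean was lower at each step from no irradiation through 10 and 15 to 30 min. The 3 plasma 30 min libraries all lay below the 3 controls in 48 of the 49, where 30.6% of all genes tested did so, and the exception was sda1. The 30 min mean lay under the H2O2 mean in 46, the exceptions being agn1, mfm2 and sam1. The counts of 39 and 46 rest on means that the rule used, so the rule sets them in part. They were not set beside a share of all genes tested, and nothing is read from them.

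Most of the genes were already lower at 15 min. All 3 plasma 15 min libraries lay below all controls in 43 of the 49, against 27.1% of genes tested, and the 15 min mean was at most 0.6 times the control in 13, against 2.27% of the 4192 genes open to the rule. All 3 H2O2 libraries lay below the controls in 41, against 29.0%, and the H2O2 mean was at most 0.6 times the control in 12, against 2.05%. At 10 min, all libraries already lay below the controls in 14, against 20.2%. Each of these comparisons uses the controls that chose the genes, which the counts cannot be read apart from.

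In edgeR's quasi-likelihood test with Benjamini-Hochberg adjustment over all genes, plasma 15 min against no irradiation called 41 of the 49 lower and 2 higher, where 24.8% of genes tested were called lower and 27.1% higher. H2O2 against no irradiation called 40 lower and 0 higher, where the background was 25.6% and 28.5%. Both comparisons use the control libraries that chose the genes, so these counts are descriptions and support nothing. The 2 genes called higher at 15 min were ste11 and SPCC1529.01, and 0 members were called higher without control library a or without plasma 15 min library a, 1 without plasma 15 min library b, and 1 with total counts in place of TMM.

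**Figure D1:**
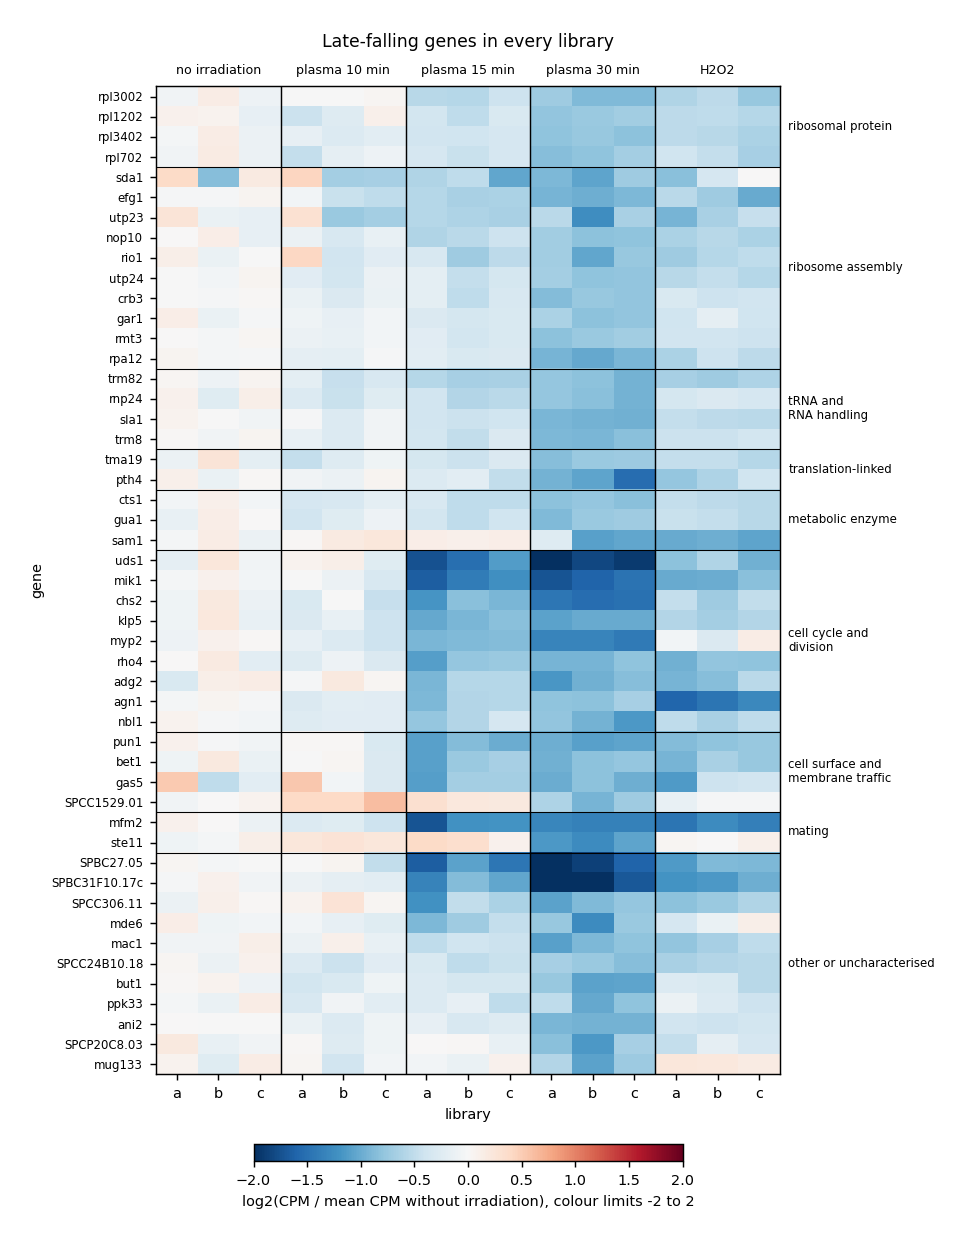
Heat map of the 49 late-falling genes (rows, grouped by role) in the 15 libraries (columns), coloured by log2 of CPM over the mean CPM without irradiation. Division genes, and surface genes other than SPCC1529.01, are already blue at 15 min, while some genes, such as sam1, ste11 and SPCC1529.01, are pale or red at 15 min.

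Between 15 and 30 min the counts varied by role. In ribosomal protein, tRNA and RNA handling, translation-linked and metabolic genes, all 3 libraries at 30 min lay below all 3 at 15 min in each gene, 13 of 13. In ribosome assembly this held in 7 of 10. In division genes it held in 4 of 9, and in surface genes in 1 of 4. The 15 min mean was at most 0.6 times the control in 6 of 9 division and 3 of 4 surface genes, and in 0 of the 23 genes of the ribosome, RNA, translation and metabolic roles. Over all genes tested, 24.9% had 30 min libraries all below 15 min. The 30 min group was used by the rule, so these counts carry no test. They also depend on roles assigned with these values known. mac1 and mde6, of the mitosis and cell separation list, were counted as other, with 15 min ratios of 0.736 and 0.622.

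**Figure D2:**
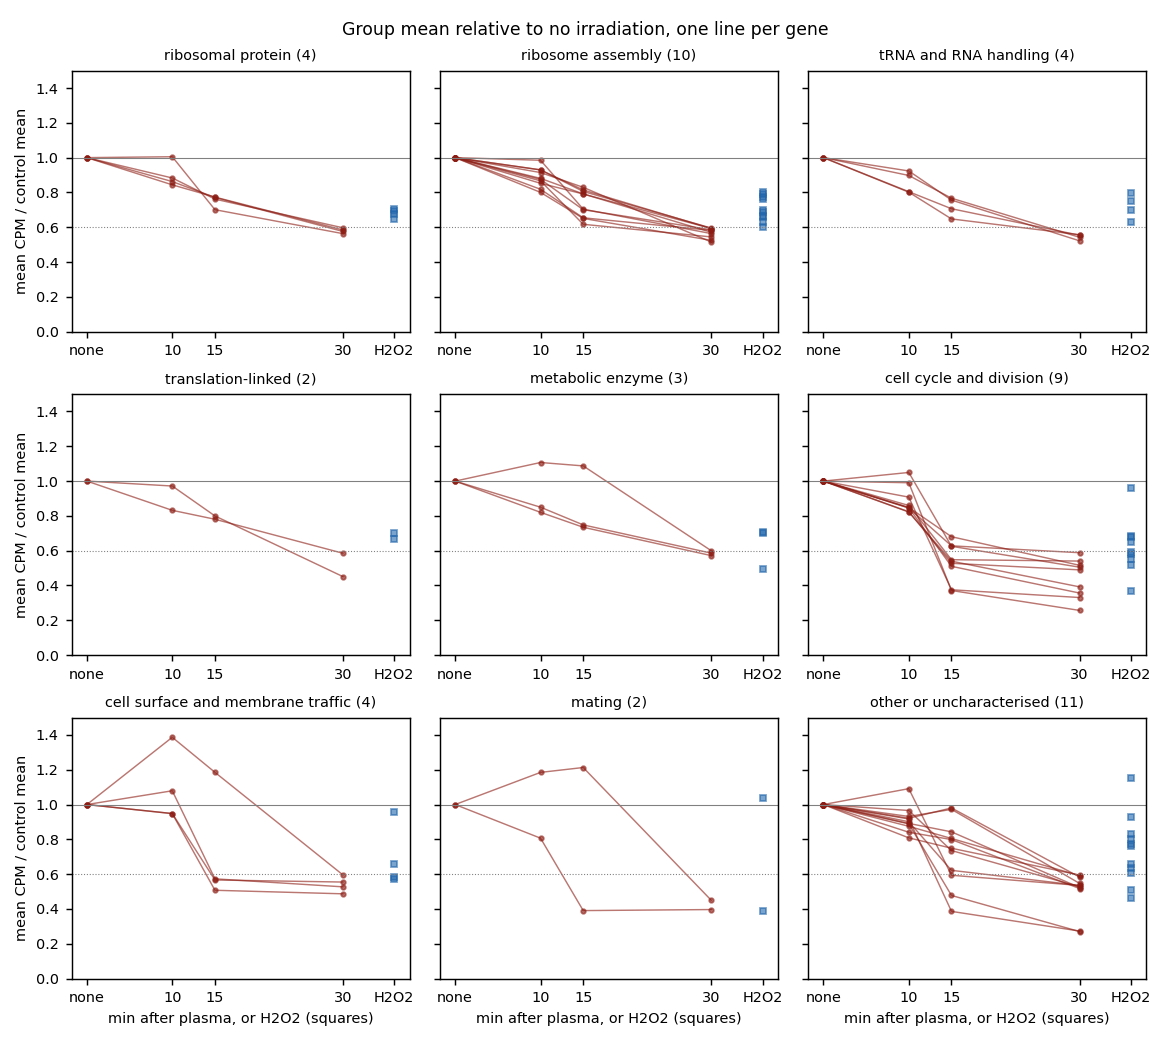
Group mean CPM divided by the control mean, with 1 line per gene over plasma time (min) and squares for H2O2, in a panel per role. Division genes drop between 10 and 15 min, after which some lines, such as mik1, klp5 and agn1, flatten and others, such as uds1, chs2 and myp2, go on down, and ribosomal protein and ribosome assembly genes reach 0.515 to 0.597 at 30 min.

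Ribosomal protein genes were represented by 1 gene for each of 4 proteins that have more than 1 gene copy. rpl702, for large-subunit protein L7, had 1071, 1264 and 1031 CPM without irradiation and 804, 986 and 1049 CPM at 10 min. It had 887, 825 and 891 CPM at 15 min, 620, 646 and 700 CPM at 30 min, and 852, 804 and 711 CPM with H2O2. Its 30 min libraries lay below every other library. rpl1202 had 450 ± 43.6 CPM without irradiation and 269 ± 9.29 CPM at 30 min (SD, n = 3), rpl3402 had 263 ± 24.6 and 151 ± 2.91 CPM, and rpl3002 had 152 ± 15.1 and 85.5 ± 5.91 CPM.

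For each of them 1 other copy was compared, and it stood higher relative to its own control at 30 min. Any further copies were not compared. The ratio was 0.790 for rpl701 against 0.584 for rpl702, 0.727 for rpl1201 against 0.597 for rpl1202, 0.712 for rpl3401 against 0.576 for rpl3402, and 0.702 for rpl3001 against 0.563 for rpl3002. The rule sets this order in part, since a copy above 0.6 is outside it. With H2O2, the ratios to the same controls were 0.848 against 0.703, 0.755 against 0.691, 0.764 against 0.674 and 0.757 against 0.648. These copies were picked after their values were seen, and copies of near-identical sequence may have divided reads, so each value is uncertain. Among the 114 ribosomal protein genes tested, 6 were at most 0.6 at 30 min, as were 298 of all 5214 genes tested, and the median ratio of the list was 0.723.

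**Figure D3:**
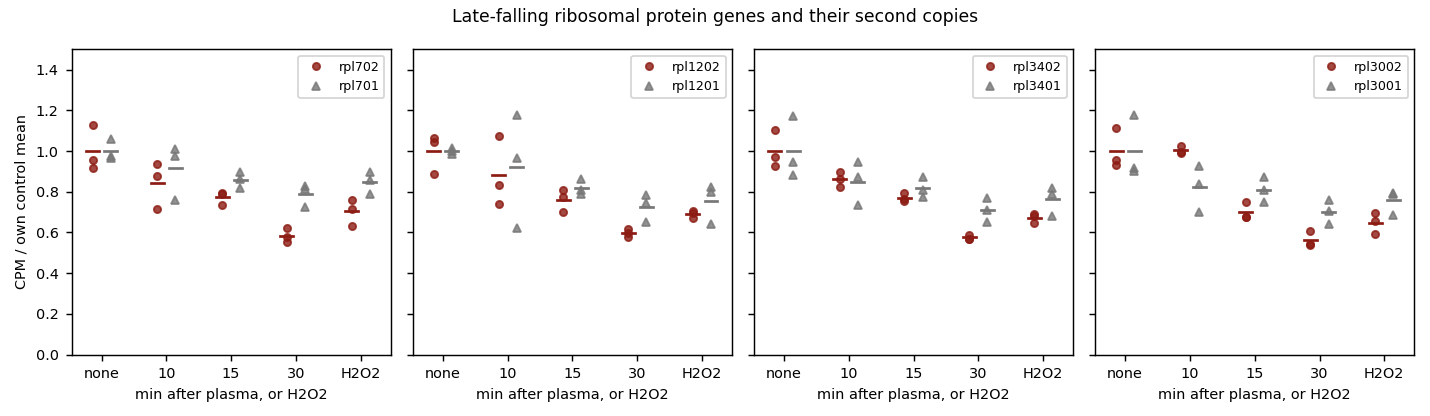
CPM of each library divided by that gene's own control mean, for the 4 late-falling ribosomal protein genes (circles) and 1 other copy of each (triangles). Bars are group means. At 30 min the circles have means from 0.563 to 0.597 and the triangles from 0.702 to 0.790.

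Ribosome assembly genes spanned polymerase I, snoRNPs and processing factors. rpa12, a subunit of RNA polymerase I, had 93.5, 87.4 and 88.5 CPM without irradiation, 77.6, 72.5 and 73.3 CPM at 15 min, 46.9, 44.2 and 47.6 CPM at 30 min, and 57.8, 67.3 and 62.5 CPM with H2O2. It was 0.25 ± 0.06 higher at 15 min than with H2O2 (log2, SE, adjusted p = 0.00767). gar1 and nop10 encode subunits of the H/ACA snoRNPs, particles that guide pseudouridine formation. They had ratios of 0.595 and 0.585 at 30 min, where their partner nhp2 stood at 0.726. The rule sets this order in part, since a gene above 0.6 is outside it, and nhp2 was picked after its values were seen. At 15 min the ratios were 0.806 for gar1, 0.701 for nop10 and 0.799 for nhp2. Other listed genes overlap 62.7% of gar1. At 30 min, the processome members utp23 and utp24 had 0.582 and 0.593, and crb3, of the rixosome complex, had 0.571. rmt3, which methylates a ribosomal protein, had 0.593. rio1, efg1 and sda1, with roles in ribosome assembly known from budding yeast, had 0.563, 0.525 and 0.544.

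In the list of 101 tested ribosome biogenesis genes, 40 were at most 0.6 at 30 min and 40 stood above 0.8 at 10 min, and 5 were late-falling (4.95%). Of all 5214 genes tested, 298 were at most 0.6 at 30 min, 4707 stood above 0.8 at 10 min, and 0.94% were late-falling. The median ratio of the list was 0.762 at 10 min and 0.635 at 30 min. Of the 40 low at 30 min, only those 5 met the other conditions.

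Among RNA-handling genes, sla1, which binds new polymerase III transcripts, had 419, 395 and 379 CPM without irradiation, 304, 296 and 302 CPM at 15 min, 212, 206 and 205 CPM at 30 min, and 286, 276 and 274 CPM with H2O2. Its 30 min libraries were below all others. Both subunits of the tRNA m7G methyltransferase were late-falling: trm8 went from 84.5 ± 3.86 to 45.8 ± 1.31 CPM and trm82 from 96.9 ± 5.50 to 54.0 ± 3.46 CPM at 30 min (SD, n = 3). tma19, homologous to translationally controlled tumour protein, was the most abundant member, with 2294, 2985 and 2184 CPM without irradiation and 1377, 1485 and 1504 CPM at 30 min. pth4, annotated as a translation release factor, had a ratio of 0.451.

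sam1, S-adenosylmethionine synthetase, differed from the rest of its role. It had 1860, 2120 and 1774 CPM without irradiation and 1949, 2163 and 2256 CPM at 10 min. At 15 min it had 2108, 2053 and 2095 CPM, within the range of the 10 min libraries. At 30 min it had 1609, 903 and 938 CPM, so library a lay well above libraries b and c, and with H2O2 it had 956, 970 and 927 CPM. It was 1.13 ± 0.16 higher at 15 min than with H2O2 (log2, SE, adjusted p = 0.000114). Its 30 min ratio of 0.5997 was the highest of the members. The other enzymes, gua1 of guanine nucleotide synthesis and cts1 of cytidine nucleotide synthesis, had ratios of 0.748 and 0.735 at 15 min and 0.586 and 0.572 at 30 min.

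Division genes included 4 of the 6 lowest 30 min ratios, in uds1, mik1, chs2 and myp2. mik1, a kinase that inhibits Cdc2, had 91.5, 99.8 and 89.8 CPM without irradiation and 93.7, 86.4 and 75.1 CPM at 10 min. It had 29.8, 35.5 and 40.2 CPM at 15 min, 28.4, 30.8 and 33.8 CPM at 30 min, and 46.4, 47.3 and 52.3 CPM with H2O2. The H2O2 libraries lay between the controls and the 15 and 30 min libraries, without overlap with either. It was 0.46 ± 0.10 lower at 15 min than with H2O2 (log2, SE, adjusted p = 0.0041).

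myp2, a type II myosin of the contractile ring, had 20.8, 23.5 and 22.6 CPM without irradiation, 11.8, 12.1 and 12.2 CPM at 15 min, and 8.92, 8.95 and 8.35 CPM at 30 min. With H2O2 it had 21.5, 18.2 and 24.6 CPM, which spans the controls. The difference between 15 min and H2O2 was a log2 fold change of -0.83 ± 0.11 (SE, adjusted p = 3.5e-05). Other listed genes overlap 76.1% of myp2, so this value is uncertain.

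uds1, a septation gene, had 6.15, 8.20 and 6.66 CPM without irradiation, 2.11, 2.48 and 3.22 CPM at 15 min, 1.55, 1.99 and 1.86 CPM at 30 min, and 3.98, 4.59 and 3.61 CPM with H2O2. Its level is low, and other listed genes overlap 99.0% of it. chs2, chitin synthase-like and a septum component, had 24.1, 29.2 and 23.7 CPM without irradiation, 11.3, 14.3 and 13.6 CPM at 15 min, 9.39, 8.95 and 9.13 CPM at 30 min, and 18.4, 15.7 and 18.2 CPM with H2O2. klp5, a kinesin-8 motor, had 163, 198 and 155 CPM without irradiation, 84.6, 91.5 and 96.1 CPM at 15 min, 81.6, 85.5 and 85.7 CPM at 30 min, and 114, 107 and 115 CPM with H2O2. Its heterodimer partner klp6 had a ratio of 0.617 at 30 min and of 1.01 with H2O2. klp6 was picked after its values were seen, and a gene above 0.6 at 30 min is outside the rule.

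agn1, the glucanase that cleaves the septum at cell separation, stood lowest with H2O2. It had 286, 306 and 288 CPM without irradiation, 158, 196 and 199 CPM at 15 min, 168, 166 and 184 CPM at 30 min, and 98.2, 106 and 120 CPM with H2O2. It was 0.77 ± 0.09 higher at 15 min than with H2O2 (log2, SE, adjusted p = 9.95e-06). Of the remaining division genes, adg2 and nbl1 (borealin-like) had 15 min ratios of 0.625 and 0.680 and H2O2 ratios of 0.592 and 0.682, and did not pass the test between those groups. In the mitosis and cell separation list, 70 genes were tested and 7 were late-falling (10.0%), where 0.94% of all genes tested were. The 7 included mac1 and mde6, which are not among the division genes by role. At 30 min, 16 of the list were at most 0.6, where 298 of 5214 genes tested were. Between 15 min and H2O2, 20 of the 70 were called lower and 6 higher, where 13.2% and 9.90% of all genes tested were.

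**Figure D4:**
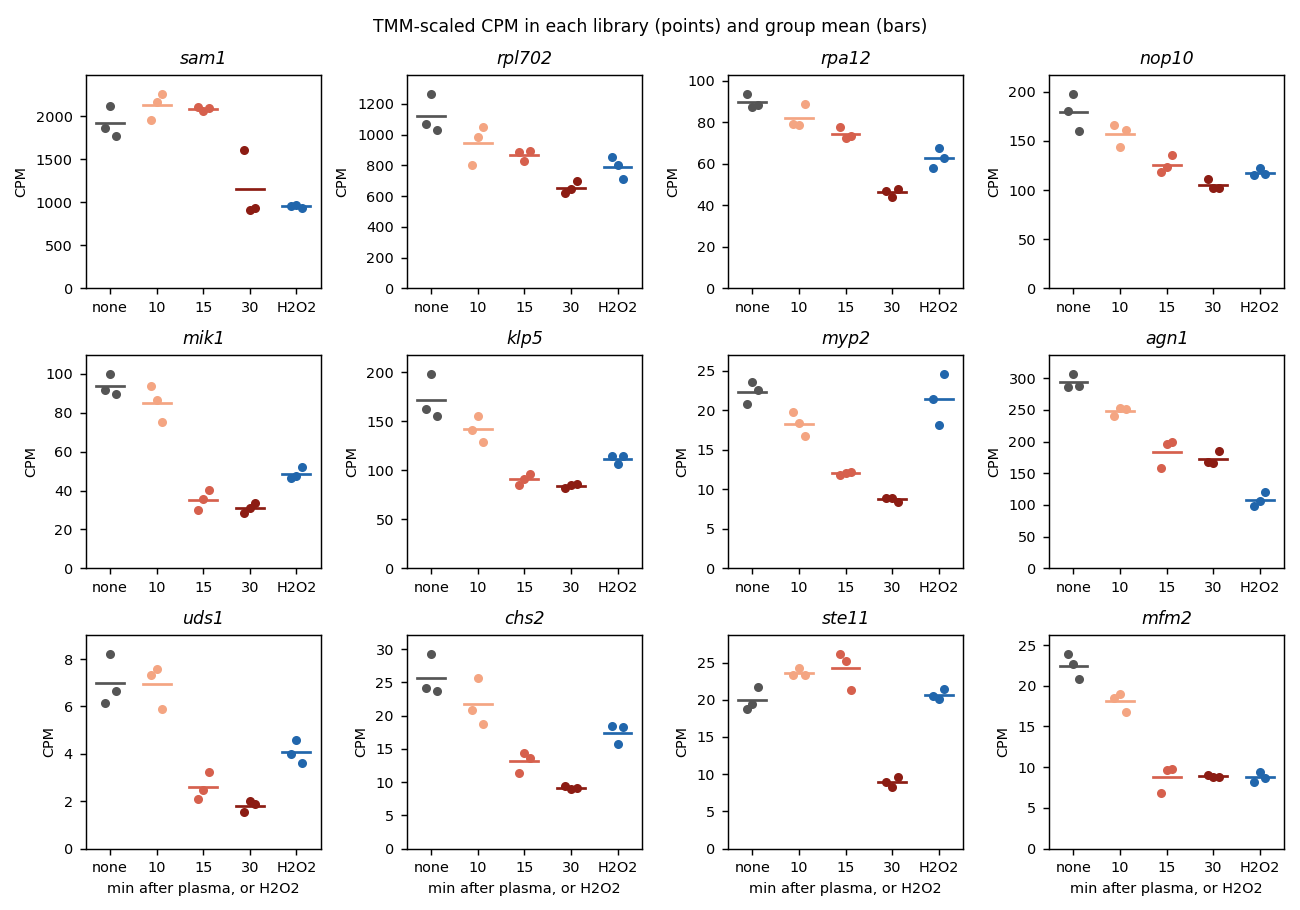
TMM-scaled CPM in every library for 12 late-falling genes (points), with group means (bars); the x axis gives plasma time in min, no irradiation and H2O2. myp2 with H2O2 lies at the level of the controls, agn1 is lowest with H2O2, and ste11 is lowest at plasma 30 min.

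Surface genes other than SPCC1529.01 were near their 30 min level at 15 min. pun1, a SUR7-family membrane protein, had 105, 96.9 and 93.9 CPM without irradiation, 46.4, 54.2 and 49.3 CPM at 15 min and 50.3, 46.4 and 47.3 CPM at 30 min. bet1, a SNARE of ER-to-Golgi traffic, had ratios of 0.566 and 0.555 at 15 and 30 min. gas5, a glucanosyltransferase of the cell wall, had ratios of 0.573 and 0.527, and 85.4% of it is overlapped. SPCC1529.01, an annotated transporter, had 24.5, 25.8 and 26.9 CPM without irradiation, 33.8, 33.8 and 39.4 CPM at 10 min, 32.2, 29.9 and 29.4 CPM at 15 min, and 16.7, 13.5 and 15.7 CPM at 30 min.

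mfm2, which encodes a precursor of the M-factor pheromone, had 23.9, 22.7 and 20.8 CPM without irradiation and 8.14 to 9.38 CPM with H2O2. At 15 min it had 6.78 to 9.83 CPM and at 30 min 8.78 to 9.09 CPM, so the 3 treated groups overlapped. ste11, the transcription factor that switches on mating genes, had 18.7, 19.4 and 21.7 CPM without irradiation, 23.4, 24.2 and 23.3 CPM at 10 min, 26.1, 25.3 and 21.2 CPM at 15 min, 8.98, 8.34 and 9.61 CPM at 30 min, and 20.5, 20.1 and 21.5 CPM with H2O2. The ste11 promoter holds the core of the box that Ste11 itself binds (TTCTTTGTT), found in 2.0% of coding genes.

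Among the uncharacterised genes, SPBC31F10.17c went from 33.3 ± 1.96 to 9.0 ± 1.15 CPM at 30 min and SPBC27.05 from 23.9 ± 0.694 to 6.54 ± 1.41 CPM (SD, n = 3), ratios of 0.270 and 0.273 that only uds1, at 0.257, undercut. SPBC27.05 lies 184 bases downstream of uds1 on the same strand. 3 other pairs of members are neighbours: pun1 and mde6 (divergent, 31 bases apart), gua1 and klp5 (convergent, 136 bases apart), and utp23 and trm82, which overlap by 115 bases. mug133 and the pseudogene SPCP20C8.03 stood at 0.980 and 0.972 of control at 15 min.

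Plasma 15 min against H2O2 was the one comparison free of the rule. Of the 49 genes, 6 were called lower at 15 min (klp5, mik1, chs2, myp2, uds1 and mde6), where 13.2% of all genes tested were, and 5 were called higher (agn1, sam1, SPCC1529.01, rpl3402 and rpa12), where 9.90% were. Shares of 12.2% and 10.2% lie near the background, so no result about the set is read from them. 5 of the 6 lower genes were division genes, a role assigned with these values known. mde6 had a log2 fold change of -0.57 ± 0.15, uds1 -0.62 ± 0.19, chs2 -0.41 ± 0.13 and klp5 -0.30 ± 0.09, with adjusted p of 0.0139, 0.0276, 0.0326 and 0.0188. SPCC1529.01 was 0.30 ± 0.08 higher and rpl3402 0.20 ± 0.06 higher (log2, SE, adjusted p of 0.0175 and 0.0323). The calls of mik1, myp2, agn1, sam1 and rpa12 held with any 1 library of the 2 groups left out. The other 6 calls were lost without plasma 15 min library a, at an adjusted p of 0.0948 for uds1, 0.116 for chs2, 0.0516 for mde6, 0.0699 for klp5, 0.0606 for SPCC1529.01 and 0.0597 for rpl3402. They were also lost without H2O2 library a for uds1, chs2, klp5, SPCC1529.01 and rpl3402 (0.0509 to 0.103), without H2O2 library b for uds1 and rpl3402 (0.109 and 0.0703), and without H2O2 library c for chs2, mde6, klp5 and rpl3402 (0.0604 to 0.119). Without plasma 15 min library b, uds1 and rpl3402 were lost (0.0903 and 0.06), and without library c, chs2 and rpl3402 (0.0697 and 0.121).

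**Figure D5:**
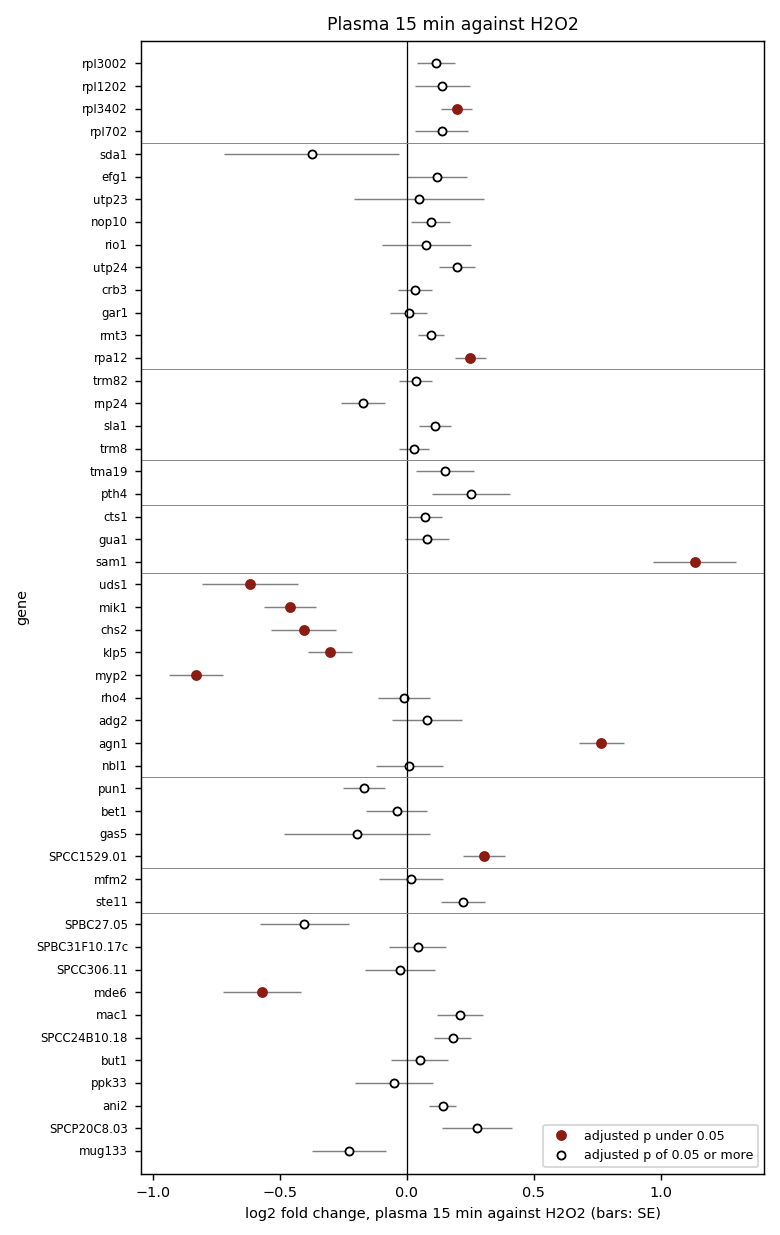
Log2 fold change between plasma 15 min and H2O2 for each of the 49 genes, with bars for the SE; filled points have an adjusted p under 0.05. sam1 (1.13) and agn1 (0.77) lie far to the right, and myp2 (-0.83) and uds1 (-0.62) far to the left, while most ribosome-related genes lie near 0.

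The thresholds passed through a dense range. Just inside 0.6 at 30 min were sam1, rpl1202 and gar1 (0.5997, 0.597 and 0.595), and just outside were apc15, cbp1 and trz2 (0.601, 0.603 and 0.607). At 10 min, efg1 and trm82 (0.8003 and 0.801) were just inside 0.8 and SPAC1B2.06 and rps3002 (0.797 and 0.795) just outside. Of the control level, sda1 and ppk33 (5.97 and 6.16 CPM) were just inside 5 CPM, and rmt2 and wtf16 (4.59 and 4.54 CPM) just outside. 10 of the 49 genes were overlapped over at least 50% of their length by other listed genes, and since no strand option was set in the counting, their values are uncertain: myp2, mde6, uds1, gas5, SPBC31F10.17c, gar1, efg1, rio1, utp23 and sda1.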

How the data were processed

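RNA-seq of 15 libraries was analysed from gene counts. The authors deposited raw counts in 2 tables, made with featureCounts 2.0.1 per the file headers, over transcript features with no strand option, from stranded mRNA libraries per the labels' protocols. The tools named in the submitters' processing notes were HISAT2 2.2.1 for alignment and SAMtools 1.13. These name a build R64, a budding yeast name, so no build is stated for the tables. Of 1702 non-coding genes, 1691 had the same interval in ASM294v3, which gave names and sequences.

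Both tables were joined, filtered with filterByExpr and scaled with TMM in edgeR 4.0.16 (R 4.3.3). One quasi-likelihood model with a mean per group was fitted, and two-sided p-values were adjusted with the Benjamini-Hochberg method at 0.05. The script was tested on simulated data. The p-values measure the spread between samples the labels call biological replicates. Column letters (a to c) were not matched to replicate numbers. Chi-square per degree of freedom between replicates was 8.93 to 79.1. Genes described in every library were those with the lowest 30 min ratio, called between 15 min and H2O2, most abundant overall or in a list, or nearest the threshold, and further genes were named by role. The members, roles and gene lists were chosen with earlier results of these data known. In the lists, 65 of 757 names were unmatched. DESeq2 1.42.0, other scalings, filters and left-out libraries were tried as alternatives. One of the promoter motifs searched and 1 division gene's own values are not reported here.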

Additional observations from a re-analysis of the deposited data

Results flagged for a closer look

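In 2 genes the libraries of an early and a late plasma time lay on opposite sides of every control library. This difference was not tested, and the rule itself set the 30 min direction. For ste11 the ratio to no irradiation was 1.1849 at 10 min and 0.4496 at 30 min. For SPCC1529.01 it was 1.3866 at 10 min, 1.1851 at 15 min and 0.5951 at 30 min.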

How the results depend on the processing

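No result reversed. The number of late-falling genes was 76 with total counts in place of TMM (44 shared with the 49), 11 with a 30 min limit of 0.5, 22 with a 10 min limit of 0.9, and 40 to 54 with 1 library left out, of which 31 were shared without control library b. Total counts moved the median 30 min change of all genes to -0.08 (log2). Genes lower at 15 min than with H2O2 numbered 398 with total counts, against 687. Members called in that comparison ranged from 2 to 6 lower and 3 to 5 higher with 1 library left out; the fewest were without plasma 15 min library a, and without H2O2 library a there were 3 lower and 3 higher. Members higher at 15 min than without irradiation numbered 1 with total counts, 1 with the groups compared fitted alone, and 0 to 2 with 1 library left out (0 without control library a or 15 min library a). In these cases the cause was not tested. Values of single genes between 15 min and H2O2 were also compared, with each gene counted once under each alternative. Of these values, 27 lost the gene's call, 3 gained one and 347 kept the call or lack of one. Some genes without a call changed sign, such as SPBC31F10.17c, from 0.042 to -0.065 (log2) without plasma 15 min library b. With a replicate block by library letter, 6 members were lower and 7 higher, and 724 and 547 genes. Between plasma 15 min and H2O2, same-letter libraries correlated by 0.342, 0.000133 and 0.208, and different-letter libraries by -0.306 to 0.225. In the comparisons with no irradiation, same-letter values were 0.0468 to 0.398 and different-letter values -0.321 to 0.265. Same-letter values were thus all positive, while different-letter values had both signs. The main fit did not pair libraries by letter, and whether letters mark pairs was not settled. Depth limits the 18 members under 30 CPM without irradiation most.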
